A study of Homo sapiens with 8 samples.

Results

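The regions described here are the enhancers of UW228 that were not called in any of 3 Group 3 medulloblastoma (G3-MB) cell lines. A region was counted as UW228-only when it lay on chromosomes 1 to 22 and shared not even 1 bp with a called enhancer of MB002, D425 or HD-MB03. This rule took 11535 of the 20198 UW228 enhancers on these chromosomes (57.1%), out of 88550 enhancer regions in the 4 lines. The members were chosen from the enhancer calls themselves, so their number, and every value from the same calls, is a description and no test was made of it.

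The series holds H3K27Ac ChIP-seq and a matching input library for each of 4 human medulloblastoma lines. MB002, D425 and HD-MB03 carry the Group 3 label and UW228 carries the SHH label, and the study used UW228 as its line outside Group 3. There was 1 library of each kind per line, with no treatment, so no difference between lines has a replicate check. D425 and UW228 were grown in DMEM with serum, whereas MB002 and HD-MB03 were grown in a stem cell medium with growth factors. The UW228 enhancer table also carries a later run date and another output folder than the 3 G3-MB tables, which cannot be told apart from the line. A region absent from the G3-MB tables was not called there, and no H3K27Ac value of a G3-MB line was available at the member regions, so the absence of a call is not an absence of signal.

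Enhancers are stretches of DNA that transcription factors (TFs) bind and from which they raise transcription of genes that can lie far away. Acetylation of lysine 27 on histone H3 marks active enhancers and promoters, and in ROSE, the program used here, peaks that lie close together are stitched into 1 region, ranked by signal and split at the bend of the ranked curve into super-enhancers (SEs) and typical enhancers. Enhancers differ between cell types far more than promoters do. AP-1, a family of dimers of FOS and JUN proteins, is a common binder of enhancers in mesenchymal and epithelial cells, whereas MYC and OTX2, a homeodomain TF of the eye and brain, are well known from G3-MB.

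The sequences of the members can be read from the reference genome. The first 4 sequences below are the central 300 bp of UW228-only enhancers that consist of 1 peak and hold an AP-1 match, TGANTCA, which is printed in capitals. They are shown because AP-1 was the motif whose share differed most between the UW228-only enhancers and those found in MB002, D425 or HD-MB03 only. They were chosen after their values were seen. All sequences are the plus strand of the hg38 (GRCh38) reference, 5′ to 3′.
COL3A1 intron, chr2:188979365-188979664: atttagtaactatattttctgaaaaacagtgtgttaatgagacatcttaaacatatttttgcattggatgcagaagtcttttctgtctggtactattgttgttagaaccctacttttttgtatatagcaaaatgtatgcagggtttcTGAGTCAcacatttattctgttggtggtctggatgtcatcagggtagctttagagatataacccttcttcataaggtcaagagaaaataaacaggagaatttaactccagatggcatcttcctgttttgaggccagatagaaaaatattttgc
BCKDHB, chr6:80544474-80544773: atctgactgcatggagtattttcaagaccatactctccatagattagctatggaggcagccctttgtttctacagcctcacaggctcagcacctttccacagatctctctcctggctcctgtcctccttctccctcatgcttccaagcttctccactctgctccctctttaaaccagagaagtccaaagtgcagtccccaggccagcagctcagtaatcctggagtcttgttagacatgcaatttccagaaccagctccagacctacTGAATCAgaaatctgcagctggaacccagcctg
SLF1, chr5:94241465-94241764: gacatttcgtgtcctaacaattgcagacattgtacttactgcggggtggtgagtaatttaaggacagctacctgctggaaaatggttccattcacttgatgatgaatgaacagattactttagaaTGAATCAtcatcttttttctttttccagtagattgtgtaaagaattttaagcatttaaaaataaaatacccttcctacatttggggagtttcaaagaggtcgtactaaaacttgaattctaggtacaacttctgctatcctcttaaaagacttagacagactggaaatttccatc
CYP1B1-AS1, chr2:38146741-38147040: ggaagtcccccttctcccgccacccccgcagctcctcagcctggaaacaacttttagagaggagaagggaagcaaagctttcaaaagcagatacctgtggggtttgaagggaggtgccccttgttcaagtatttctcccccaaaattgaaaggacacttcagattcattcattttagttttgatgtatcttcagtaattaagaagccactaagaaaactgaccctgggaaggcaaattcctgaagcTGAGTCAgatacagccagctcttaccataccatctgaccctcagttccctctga
Each name is that of the closest gene, except that the first window lay closest to *MIR1245B* and is named by its closest coding gene. The enhancers that hold these windows had an H3K27Ac signal of 29750, 21042, 13516 and 12772 after subtraction of the input, at ranks 546, 979, 1857 and 2012 of UW228, where 1 is the highest. The first overlapped a gene start and is a SE within *COL3A1*, which encodes a fibrillar collagen. The windows at *BCKDHB* and *SLF1* belong to enhancers 433 kb and 374 kb from the closest start, and that at *CYP1B1-AS1* to an enhancer 12.9 kb from it.

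The next 2 sequences hold the homeodomain letters TAATTA, the motif with the highest share in UW228-only enhancers relative to the UW228 enhancers shared with all 3 G3-MB lines, which was the stated rule for choosing sequences. The capitals mark the match.
NR2F1, chr5:93189335-93189634: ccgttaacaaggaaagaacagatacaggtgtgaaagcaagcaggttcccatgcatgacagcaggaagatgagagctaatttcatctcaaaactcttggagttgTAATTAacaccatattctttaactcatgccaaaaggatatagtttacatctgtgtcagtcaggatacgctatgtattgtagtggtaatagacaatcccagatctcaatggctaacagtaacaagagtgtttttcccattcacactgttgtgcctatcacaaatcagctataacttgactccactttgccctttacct
HIVEP3, chr1:41955370-41955669: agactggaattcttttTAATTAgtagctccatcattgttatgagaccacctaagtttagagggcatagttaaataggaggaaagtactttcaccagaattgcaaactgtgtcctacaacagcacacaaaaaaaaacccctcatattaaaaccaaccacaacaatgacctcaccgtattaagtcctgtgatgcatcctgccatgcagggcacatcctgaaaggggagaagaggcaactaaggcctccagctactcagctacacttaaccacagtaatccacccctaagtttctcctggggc
The first is in a SE of signal 25079 and rank 728 that lay 388 kb from the start of *NR2F1*, an orphan nuclear receptor of neural development, and the second is in an enhancer of signal 19688 and rank 1080, 77.5 kb from *HIVEP3*. A match to these letters is a description of the sequence and not a bound site.

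UW228 had the largest share of enhancers found in no other line. The same rule took 10041 of 25179 enhancers in MB002 (39.9%), 10326 of 25632 in D425 (40.3%) and 3852 of 15030 in HD-MB03 (25.6%), where each G3-MB line was set against the 3 other lines, UW228 included. The UW228-only enhancers were also the longest of these sets at the median and held the largest share of their own line's signal. Their median length was 1505 bp, whereas the medians of the MB002-only, D425-only and HD-MB03-only enhancers were 587, 501 and 598 bp. They covered 46.1 Mb of the 145 Mb of UW228 enhancers and held 31.1% of the UW228 signal, while the MB002-only, D425-only and HD-MB03-only enhancers held 10.2%, 13.5% and 8.12% of the signal of their own line. The 3 G3-MB lines share a subtype and UW228 has no second line of its own subtype here, so a line-specific enhancer and a subtype-specific enhancer of UW228 cannot be told apart.

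Of the other 8663 UW228 enhancers, 4472 were overlapped in 1 G3-MB line, 2108 in 2 and 2083 in all 3. D425 overlapped the most, 6110 UW228 enhancers (30.3%), followed by MB002 with 5005 (24.8%) and HD-MB03 with 3822 (18.9%). D425 alone overlapped 2442 that neither other G3-MB line did, against 1315 for MB002 and 715 for HD-MB03. D425 has the same serum medium as UW228 and also the longest table, and HD-MB03 has the shortest. As a share of the G3-MB line's own enhancers, 24.4% of D425, 20.4% of MB002 and 26.1% of HD-MB03 met a UW228 enhancer.

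The UW228-only enhancers were mostly small. Of them 6993 (60.6%) were 1 peak, against 35.8% of the overlapped UW228 enhancers, and 35 had 10 peaks or more, against 445. Their median signal was 1069 against 3304 for the overlapped enhancers, a ratio of 0.323. Per base pair the medians were 0.645 and 0.659 over all enhancers, and 0.680 and 0.778 over those of 1 peak, where the enhancers overlapped in all 3 G3-MB lines had 0.853. Signal is the deposited H3K27Ac value of the region, in reads per base pair scaled to the mapped reads and multiplied by the length, minus the same value of the input. The ratio was 0.978 per base pair, so the lower total signal went mostly with length, whereas among enhancers of 1 peak the members were also lower per base pair. Input per base pair, relative to the median UW228 enhancer, was 1.03 at the median in UW228-only enhancers and 0.973 in the overlapped, and 3 members had no signal left after subtraction.

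A longer region has more chance to meet a called region of another line, and the share of UW228-only enhancers fell with length. It was 76.6% in the shortest of 8 bins, 256 to 409 bp long, and 21.5% in the longest, of 16432 bp and more. It changed little with signal per base pair, at 56.3%, 59.7%, 58.4% and 54.1% from the weakest to the strongest quartile.

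**Figure D1:**
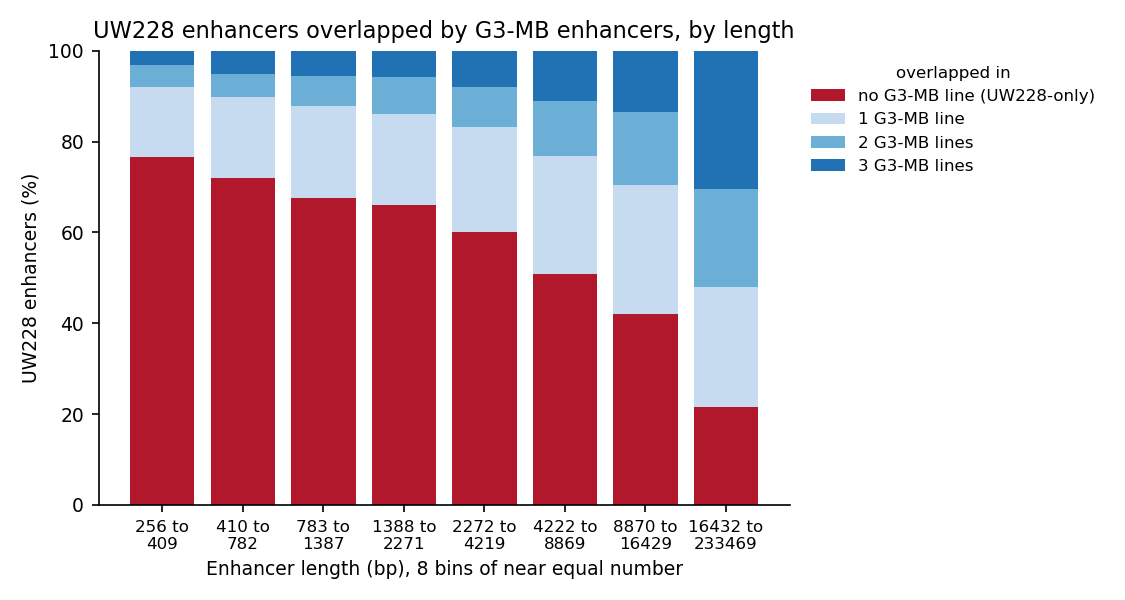
Share of UW228 enhancers (vertical axis, %) overlapped in 0, 1, 2 or 3 G3-MB lines, in 8 bins of enhancer length (horizontal axis, bp). The UW228-only share, at the bottom of each bar, runs from 76.6% in the shortest bin to 21.5% in the longest.

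The members were less often near gene starts than the other UW228 enhancers. Of the 11535, 921 (7.98%) lay within 2.5 kb of a transcription start site (TSS), against 12.7% of all UW228 enhancers, 19.0% of the overlapped ones and 29.8% of those overlapped in all 3 G3-MB lines. By the study's methods, H3K27Ac regions within 2.5 kb of promoters were not counted as enhancers, so these shares are of regions that came through that step or reached a start once stitched, and the overlapped enhancers were longer. Among enhancers of 1 peak, which are not stitched, the shares were 6.45% of the members, 11.5% of the overlapped and 17.1% of those overlapped in all 3 lines. Over enhancers of any length, the median distance to the closest TSS was 46495 bp, against 25127 bp. By position, 51.3% lay in introns, 43.9% between genes and 4.82% in exons, against 57.6%, 36.1% and 6.30% of the overlapped enhancers. The UW228-only share was 24.5% among enhancers on a TSS and 69.5% among those more than 100 kb from one. Among chromosomes it was highest on chromosome 21 (67.7%), 13 (67.2%) and 4 (66.5%) and lowest on chromosome 19 (38.6%) and 22 (39.2%).

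Many members had a G3-MB enhancer as a near neighbour. The median gap to the closest G3-MB enhancer was 17155 bp. It was at most 1000 bp for 584 members (5.06%), at most 50000 bp for 9224 (80.0%) and over 100000 bp for 965. The members closest to the limit were a region at *NLK*, chr17:28112119-28118374, with a gap of 1 bp and a signal of 1629, one at *KRT80*, chr12:52185834-52191762, with a gap of 2 bp and a signal of 8834.5, and one at *RIN2* with a gap of 2 bp and a signal of 356. Just outside it were a region at *HTR2A* that shared 5 bp and had a signal of 8262 and one at *ISG20L2* that shared 7 bp and had a signal of 3580. The limit thus passes between regions that differ by a few base pairs.

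At the other end, members followed each other over long stretches in which no G3-MB line had an enhancer. The stretch with the most members, chr21:35020740-36100787, held 21 UW228-only enhancers over 1080 kb, with a summed signal of 156651. It begins within *RUNX1*, a TF of blood and mesenchymal development, and runs to *SETD4*. A stretch of 133 kb on chromosome 12, chr12:52213545-52346898, held 19 around *KRT7*, *KRT81* and *KRT86*, which encode keratins, the intermediate filaments of epithelia. A stretch of 99.6 kb on chromosome 15 held 16 around *LOXL1*, an enzyme that crosslinks elastic fibres, and *PML*. On chromosome 5, 12 members around *PRR16* summed to a signal of 119537 over 687 kb, and on chromosome 2, 10 members between *LPIN1* and *TRIB2* summed to 121006 over 460 kb. Others of 10 or more lay at *SVIL*, *SEMA5A*, *DOK5*, *INHBA* and *GLI3*, *KITLG*, *CXCL12* and *FNDC1*. The number of members in a stretch depends on how peaks were stitched as well as on the span.

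The genes closest to the most members were mostly not those of the strongest ones. *CDH2*, which encodes N-cadherin, the adhesion molecule of neural and mesenchymal cells, was closest to 23 UW228-only enhancers of its 24 in UW228, and their summed signal was 93063. MB002 had 18 enhancers closest to *CDH2*, D425 had 5 and HD-MB03 had 2, none of which touched those 23. *EPHA3*, an ephrin receptor, had 15 of 20, beside 16 in MB002 and 14 in D425. Of all UW228 enhancers 57.1% were UW228-only, and these genes were picked for their many members, which favours a high share.

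Around *RUNX1* the count depended on the rule of assignment. All 13 UW228 enhancers closest to it were UW228-only, with a summed signal of 105029 and a best rank of 818, whereas MB002 and HD-MB03 had 0 and D425 had 2. When gene bodies and starts within 50 kb also counted, it had 15 members, 2 shared UW228 enhancers and 5 enhancers in D425. *BCKDHB*, a mitochondrial enzyme subunit of branched-chain amino acid breakdown, had 13 of 13 with a summed signal of 78787. *PRR16* had 12 of 13 and a summed signal of 119537. *NRSN1* had 13 of 13, *INTU* 13 of 14, *LINC00052* 13 of 16, *SLITRK1* 12 of 13, and *MIR100* and *LINC02305* 12 of 15 each. Closest in this sense is a matter of position, and no expression was measured in these libraries.

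SEs were rare among the members. Of the 11535, 85 (0.737%) were SEs, against 3.66% of all UW228 enhancers on these chromosomes, which number 740 SEs. When UW228 enhancers were ranked by signal per base pair, 361 of 753 SEs were UW228-only, so the count rests on the ranking. The same rule of no overlap gave 3 of 353 SEs in MB002, 10 of 427 in D425 and 11 of 300 in HD-MB03, which were 0.0299%, 0.0968% and 0.286% of the enhancers found in that line only. The 85 ranged in length from 9423 to 131298 bp with a median of 31382 bp, against a median of 43126 bp for the SEs that were overlapped. Their signal per base pair had a median of 1.04, against 0.945. Of the 85, 30 (35.3%) lay within 2.5 kb of a TSS and 23 overlapped one, against 327 (49.9%) and 277 of the 655 UW228 SEs that were overlapped. In 58 of the 85 no G3-MB enhancer lay within the stitching distance that the methods give, which is slightly above the 12 kb of the file headers.

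The strongest UW228-only SE, chr3:189267111-189328467, lay in an intron of *TPRG1* and had *TP63*, a p53-family TF of stratified epithelia, as the closest coding start at 268 kb. Its H3K27Ac value was 150206 and its input 22260, which left a signal of 127946 at rank 14. Its input per base pair was 2.36 times that of the median UW228 enhancer, the highest of the 85, and the part of the input level in its rank was not tested. The next, chr12:46904179-47035477, was the longest, with 29 peaks and a signal of 112273 at rank 23. It was assigned to *PCED1B* and *AMIGO2*, which encodes an adhesion protein, and lay only 1.04 kb from a G3-MB enhancer. The third in order had *AGPAT4*, an acyltransferase of phospholipid synthesis, as its closest start, a signal of 102169 at rank 37 and a gap of 123 kb to the closest G3-MB enhancer.

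A pair of neighbours on chromosome 6 followed, 1 over the start of *TPD52L1* with a signal of 97399.5 at rank 42 and 1 over the starts of *RNF217* and *RNF217-AS1* with 79348 at rank 68. A SE at *LINC01698*, chr1:209354507-209436045, covered *MIR205HG*, the host gene of an epithelial microRNA, with a signal of 77950.3 at rank 71 and a gap of 168 kb. The SE at *PADI1*, chr1:17161532-17238187, was assigned to *PADI1*, *PADI2* and *PADI3*, enzymes that turn arginine into citrulline. It had a signal of 70339 at rank 95 with an input per base pair of only 0.555 of the median, the lowest of the 85. *MIR3681* (67419), *LINC02725* (66090.0), *KCNS1* (61361) and *LINC02518* (59551.5) came next by signal. *ETS1*, a TF of mesenchymal and endothelial cells, was the closest coding start to the *LINC02725* region, 518 kb away.

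The rest of the first 30 lay near genes of varied function. *TES*, a focal adhesion protein, had a member SE of signal 56422 at rank 138. *TENM2-AS1* (55644) lay within *TENM2*, a teneurin, and *RAB23* (53352.5) encodes a small GTPase known as an inhibitor of Hedgehog signalling. *FAP*, the fibroblast activation protein, a surface protease of stromal cells, had a member SE over its start with an H3K27Ac value of 46967 against an input of 5521, at rank 290. *MALT1* (41202), a protease of NF-kB signalling, and *CDCP1* (44349), a Src substrate at the cell surface, also had 1 each. The SE chr9:21972068-22006791 covered the starts of *CDKN2A*, an inhibitor of the G1 kinases, and of the antisense RNA *CDKN2B-AS1*, and was also assigned to *CDKN2B*, with 43817 against an input of 7465 at rank 376. The closest G3-MB enhancer was 50.9 kb away, and input reads were present over the locus at 1.40 times the density of the median UW228 enhancer.

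*NNMT*, nicotinamide N-methyltransferase, had a signal of 36219 at rank 382, and *PRR16* 36084 at rank 384. The others of the 30 were closest to *SPP2* (51069), *KCNK16* (47955), *MIR5572* in *ARNT2* (45582.5), *TOX2* (43085), *MIR582* in *PDE4D* (39031), *HACL1* (38964), *LINC01613* (35449), *STON2* (35025), *LINC00474* (34939) and *OFCC1* (34393). The last was the shortest, 9423 bp, and had the highest signal per base pair of the 85, 3.65, with *TFAP2A*, a TF of neural crest and epithelia, as its closest coding start at 141 kb. Of the first 30, 7 lay on chromosome 6, where the median input of the members was 1.37. Chromosome 6 held 10 of the 85 and 83 of all 740 UW228 SEs, and chromosome 5 held 11 and 59. Of chromosomes 8, 16, 19, 21 and 22, none had a UW228-only SE, and they held 18, 4, 18, 5 and 7 UW228 SEs in all.

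**Figure D2:**
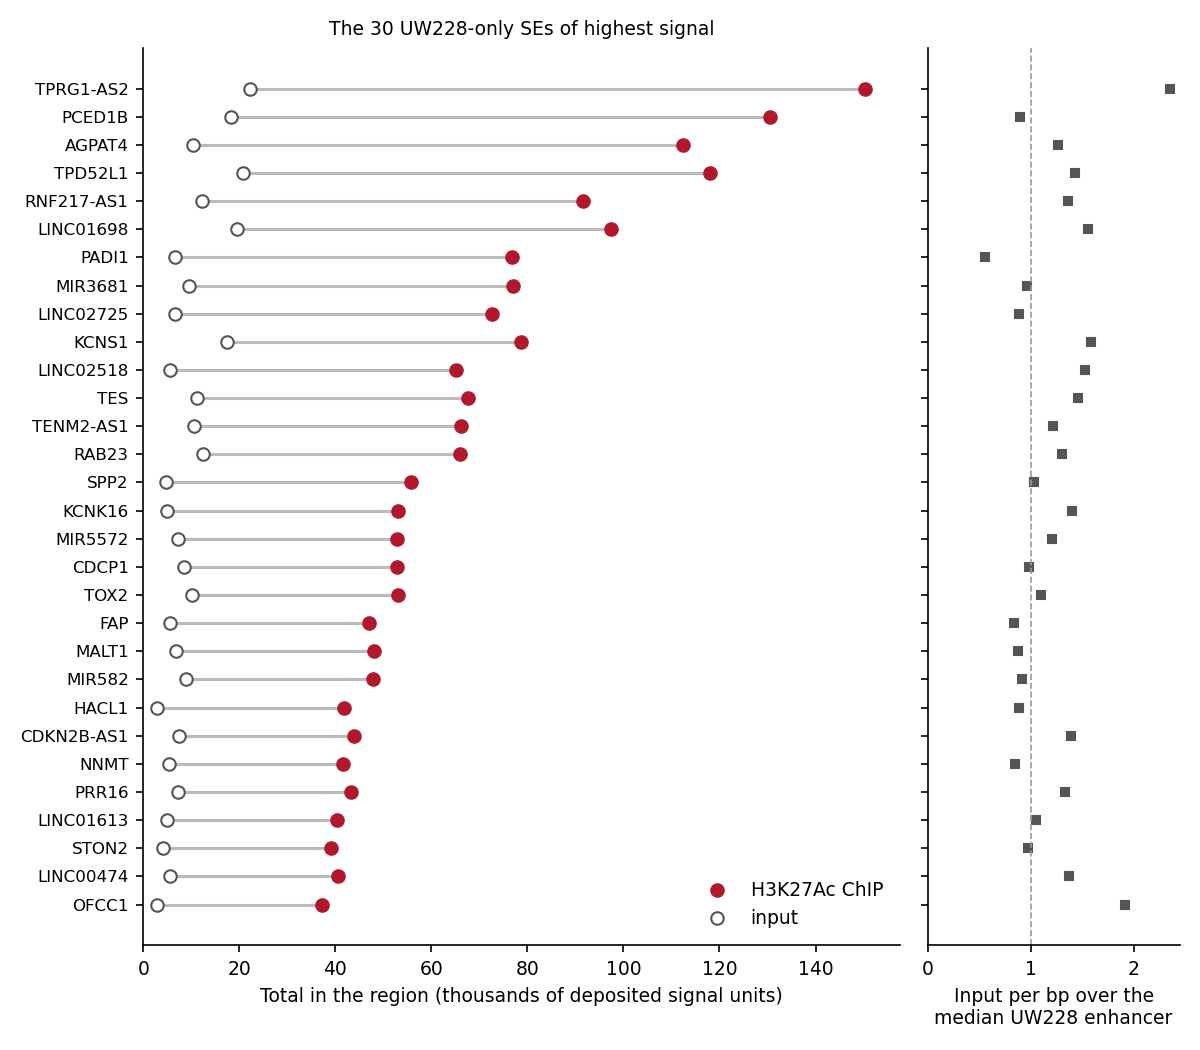
H3K27Ac ChIP (filled points) and input (open points) of the 30 UW228-only SEs of highest signal, in deposited signal units divided by 1000 on the horizontal axis of the left panel, named by the closest gene, with the input per base pair relative to the median UW228 enhancer in the right panel. ChIP exceeds input in each of the 30, and relative input is highest at *TPRG1-AS2* (2.36) and lowest at *PADI1* (0.555). Values are from 1 library of each kind.

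The genes near the members were then counted by lists of genes. A gene was assigned to an enhancer that overlapped it, lay within 50 kb of its TSS or had it as the closest gene. By this rule 10931 of 26221 genes on chromosomes 1 to 22 (41.7%) had a UW228-only enhancer, and 0.606% had a UW228-only SE. Since a gene with many UW228 enhancers is more likely to have a member, the UW228-only share of the enhancers assigned to each list is given beside the count of genes, to be read against 57.1% for all enhancers. The lists were chosen with earlier results of these data known, and their counts are descriptions.

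Mesenchymal genes had the highest share. Of 16, 13 had a UW228-only enhancer, and 70 of their 90 UW228 enhancers (77.8%) were UW228-only. The first was *CDH2*, whose strongest member had an H3K27Ac value of 22919 against an input of 2309. *SNAI2* and *TWIST1*, TFs that drive epithelial-to-mesenchymal transition, had 2 and 11 members, with the strongest at a signal of 9673 and 8091. All 11 enhancers assigned to *TWIST1* in UW228 were members, against 4 enhancers in MB002 and 0 in D425 and HD-MB03. *FOXC1* had 10, with a best signal of 6257, beside 5, 4 and 7 enhancers in MB002, D425 and HD-MB03, *VIM*, the mesenchymal intermediate filament vimentin, had 8 with a best signal of 4329, and *ZEB1* had 3 with a best signal of 3958, beside 2, 3 and 3. *SNAI1* and *PRRX1* had no member and 3 shared enhancers each. Of the 16 genes, 12 had an enhancer in MB002 and 11 in each of the other G3-MB lines. Because 23 of the 70 belong to *CDH2*, the list's share rests on few genes.

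Among genes of the extracellular matrix, 17 of 23 had a member and 76 of 117 enhancers (65.0%) were UW228-only. That share lay between the 77.8% of the mesenchymal list and the 57.1% of all enhancers. *COL3A1* had 4 members and no shared enhancer, 1 of them the SE whose central letters are printed above, with an H3K27Ac value of 31681.5 against an input of 1931. The best member of *COL12A1*, a collagen of dense connective tissue, had a signal of 18378, that of *COL5A2* 16522, that of *FN1*, fibronectin, 16011, that of *THBS1* 13106 and that of *COL6A3* 12409. *COL4A1* and *COL4A2*, neighbours that share a promoter region, had 12 and 14 members in part in common. The matrix proteases were weaker, and *MMP1* and *MMP3* had 2 members each, the best being the same region with a signal of 709.

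Among RUNX and ETS factors, 8 of 12 genes had a member and 47 of 71 enhancers (66.2%) were UW228-only. The SE assigned to *RUNX2*, the master TF of bone, chr6:45424938-45455402, had a signal of 24694 at rank 746 and had *SUPT3H* as its closest start. *RUNX1* had 15 assigned members and 2 shared enhancers, and *ETS1* had 13 members, with a best signal of 16235, and 6 shared enhancers. *ETS2* had 1 member of signal 16818, *ERG* 6 with a best signal of 7574 and *RUNX3* 1 of signal 6643. Because *RUNX1* and *ETS1* hold most of the 47, the list's share rests on few genes. Of *RUNX3*, no enhancer was assigned in any G3-MB line.

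Integrin and focal adhesion genes had members and shared enhancers side by side. Of 23, 15 had a UW228-only enhancer, 20 had a shared one, and 28 of 60 enhancers (46.7%) were UW228-only. A shared UW228 enhancer was assigned to 41.9% of all genes and to 70.6% of the genes of the 13 lists together. *CAV1* and *CAV2*, the caveolins of membrane pits, shared a member SE of signal 24752 at rank 743. The best member of the integrin *ITGB8* had a signal of 23905, that of *CD44*, the hyaluronan receptor, 11234, that of *TPM1*, a tropomyosin, 7112 and that of *ITGB3* 7095.5.

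Receptor kinases and their ligands had 14 of 20 genes with a member and 40 of 76 enhancers (52.6%). *EPHB2* led with a signal of 20016, before *NRG1* with 14 members and a best signal of 11178, *AXL* with 9993, *FGF5* with 5818, *MET* with 5792 and *PDGFC* with 5642. Neither enhancer of *AXL*, a receptor kinase of mesenchymal tumour cells, was shared, and no G3-MB line had an enhancer assigned to it. Inflammatory and NF-kB genes had 12 of 16 with a member and 18 of 34 enhancers (52.9%). The strongest were at *IL6* (10068), with 3 members and no shared enhancer, and *CCL2* (7335). *IL1A* and *IL1B* had the same member as their best (2661), and *STAT3* (2027) and *LIF* (1961) followed.

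In the YAP and TEAD list, 8 of 16 genes had a member and 16 of 42 enhancers (38.1%) were UW228-only, led by *F3*, tissue factor, at 15618, *AXL*, *WWTR1* at 5148 and *TEAD1* at 4186, with *LATS2* at 2194 and *YAP1* at 2188. In the TGF-beta list it was 10 of 17 genes and 19 of 58 enhancers (32.8%), led by the activin antagonist *FST* at 11745, the receptor *TGFBR1* at 10317 and the activin subunit *INHBA* at 7931. *SMAD6* (5243), *TGIF1* (3341) and *TGFBR2* (2334.5) were lower. Of the 17 TGF-beta genes, 16 (94.1%) also had a shared enhancer, against the 41.9% of all genes given above.

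The genes of AP-1 itself were at the low end. Of 14 AP-1 and immediate early genes, 4 had a UW228-only enhancer, 12 (85.7%) had a shared one, and 6 of 31 enhancers (19.4%) were UW228-only. With a TSS window of 100 kb, 57.1% of these genes had a member, against 55.3% of all genes. *FOSL2* had 3 of the 6, the strongest with an H3K27Ac value of 13641 against an input of 1691, at rank 2221. *MAFK* (1259), *EGR1* (585) and *FOS* (222) had 1 weak member each. *JUN*, *JUNB*, *JUND*, *FOSB*, *FOSL1* and *ATF3* had shared enhancers and no member. Enhancers close to a TSS were less often UW228-only in general, at 24.5% on a TSS.

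The neural lists were mixed. Of 12 neuronal and synaptic genes, 6 had a member and 15 of 32 enhancers (46.9%) were UW228-only. With no G3-MB enhancer within the stitching distance, 16.7% of these genes had a member, below the 25.5% of all genes, whereas without that condition the share was above the 41.7% of all genes. The best were at *STMN2* (6785), *SNAP25* (6463), *SYT1* (2146) and *MAP2* (1593), with *NEUROD1* (573) and *GAP43* (526) lower. Of 12 glial genes, 4 had a member and 7 of 25 enhancers (28.0%) were UW228-only, at *NFIB* (8881), *SLC1A3* (4363), *GFAP* (2912) and *PDGFRA* (1608). With that condition the glial share was 33.3%, above all genes, and without it below them. The *GFAP* member lay closest to another gene, *KIF18B*.

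The SHH label of UW228 was held against 14 SHH medulloblastoma markers. The members included 6 at *EYA1* with a best signal of 10681.5, 2 at *SFRP1*, a WNT antagonist used as an SHH-subtype marker, with a best signal of 7879, and 1 each at *GLI2* (2634), *PTCH1* (593), *NEUROD1* (573) and *HHIP* (255). Of these, *SFRP1* alone had no assigned enhancer in any G3-MB line. *GLI1*, *PDLIM3*, *BOC* and *ZIC1* had shared enhancers and no member. *ATOH1*, *MYCN* and *BARHL1*, which mark or drive granule-neuron-precursor tumours, had no UW228 enhancer at all, while *ATOH1* had 3 in MB002 and 5 in HD-MB03. In total 6 of 14 markers had a member, 42.9%, next to 41.7% of all genes, and 12 of their 23 UW228 enhancers (52.2%) were UW228-only. With no G3-MB enhancer within the stitching distance the shares of genes were 21.4% and 25.5%.

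Of 13 G3-MB and photoreceptor genes, 3 had a member, and 8 of their 15 UW228 enhancers (53.3%) were UW228-only. These were *NPR3*, a natriuretic peptide receptor, with 4 members, a best signal of 19642 and no enhancer in a G3-MB line, *NR2E3* with 2 and a best signal of 5025, and *IMPG2* with 2 and a best signal of 409. *OTX2*, *CRX*, *NRL* and *RCVRN* had no UW228 enhancer of either kind.

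**Figure D3:**
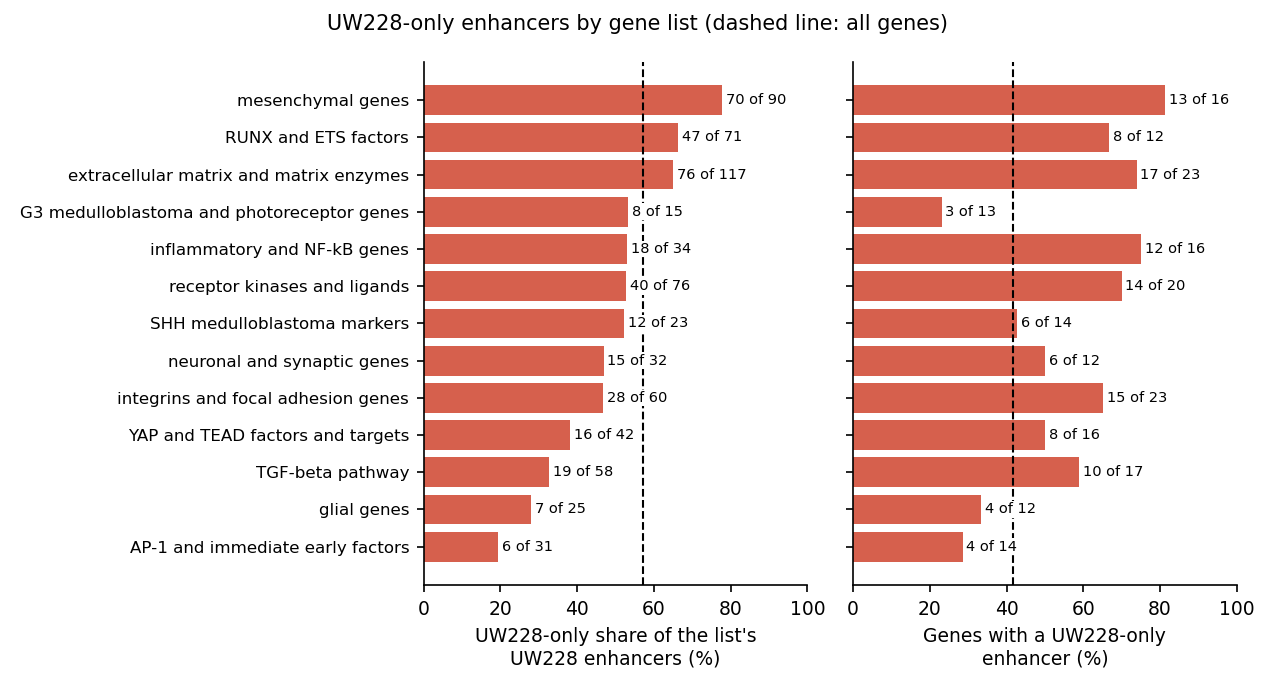
UW228-only share of the UW228 enhancers assigned to each of 13 gene lists (left, %) and share of the genes in each list with at least 1 UW228-only enhancer (right, %), with the counts beside each bar and dashed lines at the values for all genes, 57.1% and 41.7%. Mesenchymal genes are highest on the left at 77.8% and AP-1 factors lowest at 19.4%.

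Short motifs were counted on both strands in the central 500 bp of enhancers that consist of 1 peak. The AP-1 letters TGANTCA were in 33.6% of 6993 UW228-only windows (95% Wilson interval 32.5 to 34.8), against 32.7% of all 10096 such UW228 windows. They were in 28.1% of the 537 windows overlapped in all 3 G3-MB lines and in 31.3% of the 2566 windows overlapped in 1 or 2 of them. In the enhancers found in a single G3-MB line they were in 15.2% for MB002, 16.4% for D425 and 14.2% for HD-MB03. The UW228-only share was thus 2.22, 2.05 and 2.37 times those of these line-only sets. It was 1.20 times that of the UW228 enhancers shared with all 3 lines and 1.08 times that of those shared with 1 or 2. The sets were not matched for length, and AP-1 varied with length in the members. The shortest quartile of the members was 256 to 391 bp long, so their windows of 500 bp reach beyond the enhancer. The intervals cover counting error only, and windows of 1 library are not replicates. The members make up most of those 10096 windows, so nothing can be read from how close 32.7% is to their share.

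The reversed letters ACTNAGT, which have the same composition, were in 13.5% of UW228-only windows and in 10.0% to 13.8% of those in the other sets named. At 10 kb upstream and downstream of the members, AP-1 was in 14.4% and 14.6% of windows, and TAATTA in 19.5% and 19.8%. The RefSeq promoters of all genes held AP-1 in 7.71%, but they are 300 bp long, shorter than the windows above. In the members AP-1 was in 14.8% of central 200 bp windows.

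AP-1 matches lay near the centre of the members. Within 500 bp of it there were 0.840 matches per kb, and from 1000 to 1500 bp away there were 0.343, a ratio of 2.45. The ratio was 2.11 in the UW228 enhancers overlapped in all 3 G3-MB lines and 2.27 in those overlapped in 1 or 2. It was 1.07 in MB002-only, 1.08 in D425-only and 1.10 in HD-MB03-only enhancers, and 1.24 for the reversed letters in the members. Of the 6993 windows, 4640 had no AP-1 match, 1886 had 1, 406 had 2 and 61 had 3 or more.

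AP-1 varied with the size of the members as well as with their H3K27Ac. From the lowest to the highest quartile of signal per base pair, the share of windows with AP-1 was 26.6%, 33.5%, 37.0% and 37.5%. By quartile of total signal it was 26.2%, 28.1%, 41.6% and 38.7%, and by quartile of length 26.9%, 25.6%, 43.0% and 39.1%, so that the third quartile was the highest in both. Over whole regions there were 5.13 AP-1 matches per 10 kb in the members, 4.38 in UW228 enhancers overlapped in 1 or 2 G3-MB lines, 3.80 in those overlapped in all 3, 3.46 in MB002-only, 3.34 in D425-only and 2.89 in HD-MB03-only enhancers. All 85 member SEs held at least 1 match, and their density was 4.08 per 10 kb.

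Base composition differed between the sets. The windows of the members had a mean GC content of 40.6%, against 46.5% in those overlapped in all 3 G3-MB lines and 45.2% in MB002-only, 47.3% in D425-only and 48.9% in HD-MB03-only windows. AP-1 was therefore also read in windows of like GC content. Between 35% and 40% GC it was in 35.2% of UW228-only windows, 17.6% of MB002-only, 17.4% of D425-only and 16.4% of HD-MB03-only windows. In the same range it was in 35.4% of 79 windows overlapped in all 3 G3-MB lines, and between 45% and 50% GC it was in 24.8% of 129 such windows and 33.6% of UW228-only windows. The gap to the G3-MB lines was present at like GC content, whereas the gap to the shared UW228 enhancers differed between GC ranges. It was absent in the range from 35% to 40%, and AP-1 was in 35.5% of UW228-only against 33.1% of shared windows from 40% to 45%, 32.9% against 24.1% from 50% to 55% and 36.4% against 26.0% from 55% to 60%.

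The homeodomain letters TAATTA behaved otherwise. They were in 19.4% of UW228-only windows (18.2% of all UW228 windows), 12.48% of those overlapped in all 3 G3-MB lines, 14.0% of MB002-only, 11.7% of D425-only and 11.7% of HD-MB03-only windows. Between 35% and 40% GC the values were 23.1% in UW228-only, 19.0% in the shared, 23.2% in MB002-only, 24.0% in D425-only and 24.6% in HD-MB03-only windows. In that range the higher overall share of these AT-rich letters in UW228-only enhancers was not seen against the G3-MB lines. From 45% to 50% GC the UW228-only share was slightly the highest, at 9.81% against 9.68% for MB002-only, 9.04% for D425-only and 8.46% for HD-MB03-only windows. In each other range at least 1 G3-MB line was above it. The overall share in the members also did not exceed the 19.5% and 19.8% of the flanking windows.

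Other motifs were mostly close to or below their share in the UW228 enhancers overlapped in all 3 G3-MB lines, whose share stands as the last value in each of the following pairs and whose GC content was higher. The E-box CAGCTG was in 20.0% of UW228-only windows (background 21.5%) and 28.3%, and also in 38.3% of HD-MB03-only windows. At like GC content the order of this pair differed between ranges. UW228-only windows were lower from 35% to 40% GC (14.7% against 16.5%), 40% to 45% (22.6% against 29.8%) and 45% to 50% (27.8% against 34.1%). They were higher from 50% to 55% (36.3% against 33.3%) and from 55% to 60% (44.4% against 28.8% of 73 windows). The E-box CACGTG, which MYC can bind, was in 4.30% (background 5.1%) and 9.87%. The E-box CAGATG was in 29.9% (background 30.7%) and 31.7%. The ETS letters GGAAGT were in 29.5% (background 29.6%) and 27.6%, the NFI letters TTGGCA in 29.7% (background 29.5%) and 27.7%, the SOX letters ACAAAG in 38.3% (background 38%) and 33.3%, and the CRE letters TGACGT in 3.76% (background 4.09%) and 3.72%. GLI letters CCACCCA were in 8.65% (background 9.59%) and 11.9%. The TEAD letters GGAATG were in 29.7% (background 30.4%) and 30.4%, and the RUNX letters TGTGGT in 32.7% (background 32.9%) and 32.0%. OTX/CRX letters TAATCC, which share 4 letters with TAATTA, were in 24.1% of UW228-only windows (background 25.2%), 34.8% of MB002-only, 34.1% of D425-only and 22.9% of HD-MB03-only windows, and in 29.2% of the UW228 windows overlapped in all 3 G3-MB lines. At like GC content HD-MB03-only windows had a higher share than UW228-only windows in each of 6 ranges, from 24.8% against 18.4% between 30% and 35% GC to 13.9% against 13.2% between 55% and 60%. TAATCC is also part of Alu repeats. After matches followed by CAGC, as in those repeats, were left out, the shares were 18.5%, 27.9%, 20.3%, 17.7% and 22.7%, so that D425-only came close to UW228-only windows. No other motif in the search had a UW228-only share over 2 times that of each of the 3 G3-MB line-only sets.

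**Figure D4:**
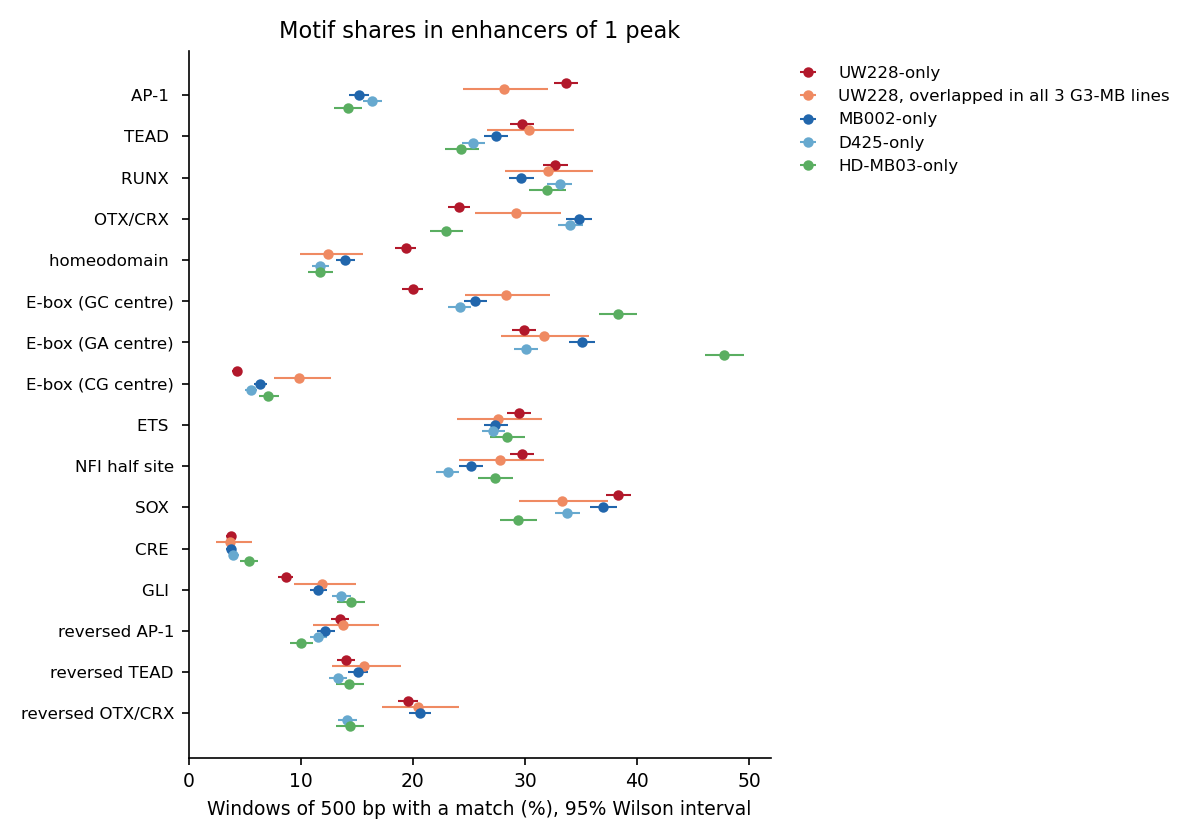
Share of central 500 bp windows with a match to each motif (horizontal axis, %, with 95% Wilson intervals as bars) in UW228-only enhancers, UW228 enhancers overlapped in all 3 G3-MB lines and enhancers found in a single G3-MB line only, for enhancers of 1 peak. AP-1 is in 33.6% of the UW228-only set and 28.1% of the UW228 set overlapped in all 3 G3-MB lines, against 14.2% to 16.4% of the 3 G3-MB sets. The reversed AP-1 letters lie between 10.0% and 13.8% in all sets drawn.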

How the data were processed

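Per the labels and the paper's methods, the authors aligned ChIP and input reads to GRCh38 with Bowtie2 2.3.0, handled them with SAMtools 1.9, removed multi-mappers and duplicates, called peaks with MACS2 2.2.6, left out those within 2.5 kb of promoters and stitched and ranked them with ROSE. The deposited signal of each stitched enhancer, for ChIP and for input, is reads per base pair normalised to mapped reads and multiplied by the length, without input subtraction. The deposited score is the ROSE rank. The file headers give a stitching distance of 12 kb. Depth is unknown, so signals have no counting interval.

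Signal was taken here as ChIP minus input, floored at 0, with the authors' ranks and SE calls. Genes were 27337 of 29853 curated RefSeq genes found in GENCODE 44. Values were computed in Python 3.11.15 (pandas 2.3.3, numpy 2.4.6, scipy 1.17.1, pysam 0.24.0) and figures made in matplotlib 3.10.9. Overlap, gene assignment and motif counts were tested on simulated data. Named genes are the closest to the 25 members of highest signal and to member SEs up to 30, the 10 closest to the most members with ties, and up to 6 per list by highest member signal, and others named were chosen after their values were seen. Members and lists were chosen with earlier results of these data known. No test was made, since each group is 1 library. Alternatives covered membership, SE ranking, gene sets and motif windows. A few results at single genes are not reported here.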

Additional observations from a re-analysis of the deposited data

How the results depend on the processing

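No paired analysis was possible because each line has 1 ChIP library and 1 input library, and no replicate could be left out. UW228-only enhancers numbered 12850, 13977 and 12250 without the MB002, D425 or HD-MB03 table, and 6868 when no G3-MB enhancer lay within the stitching distance of the methods. UW228-only SEs numbered 361 when ranked by signal per base pair. The share within 2.5 kb of a TSS was 6.35% for protein-coding genes and 15.6% for all GENCODE genes, against 15.1% and 31.6% in the overlapped enhancers. The ratio of median signals was 0.322 without input subtraction, 0.978 per base pair and 0.619 in enhancers of 1 peak. AP-1 was in 14.8% of central 200 bp, 57.8% of central 1000 bp and, with stitched enhancers included, 29.96% of central 500 bp windows, against 11.9%, 44.5% and 20.9% in the enhancers overlapped in all 3 G3-MB lines, so the members' share was the higher in each. Of the counts, shares and ratio that answer a comparison, 17 alternatives, the 3 left-out tables included, left a count within 1.5 times or a share within its interval. The remaining 13 include every alternative of the ratio of median signals, to which neither limit applies and which stayed below 1 in each. For single lists and other motifs 86 alternatives did so and 68 did not. GC bins, flanking windows, the AP-1 profile and the OTX/CRX count without repeat-like matches were added after the data were seen. Set against all genes, the share of genes with a member changed side in 4 cases for single lists. With no G3-MB enhancer within the stitching distance, where all genes gave 25.5%, it was 21.4% for SHH markers, 16.7% for neuronal and 33.3% for glial genes, and with a TSS window of 100 kb it was 57.1% for AP-1 genes against 55.3%. UW228-only against shared windows changed side in 7 cases. For TEAD it was 50.7% against 49.3% in 1000 bp and 28.6% against 27.1% with stitched enhancers, and for RUNX 33.0% against 33.9% away from a TSS. For CRE it was 1.43% against 2.61% in 200 bp, 7.84% against 8.94% in 1000 bp, 3.66% against 4.13% with stitched enhancers and 3.70% against 3.82% away from a TSS. The unknown depth limits what the absence of a call in a G3-MB line can show.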
